A study of Homo sapiens with 4 samples.

Results

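Respiratory complex I, NADH:ubiquinone oxidoreductase, was examined through the ribosome footprints of its nuclear genes. The members were the rows whose symbol began NDUFA, NDUFB, NDUFC, NDUFS, NDUFV, NDUFAF or NDUFAB and ended in a number, with readthrough models left out. They came to 46 genes of the 20323 in the files, 38 carrying subunit names and 8 the assembly factors NDUFAF1 to NDUFAF8. All 46 passed the filter on low counts. NDUFA4, which kept its subunit name but is now placed in cytochrome c oxidase, was counted among the 38 and is also given on its own.

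The cells were HCT-8, an established line from a human colorectal adenocarcinoma, and both groups used cells resistant to the drug 5-fluorouracil. One group received a negative control plasmid (NC) and the other a plasmid overexpressing METTL14 (OE), a subunit of the enzyme that writes N6-methyladenosine on messages. Cycloheximide, which arrests ribosomes of the cytosol on the message, was added to both at 100 ug/mL. Each group had 2 libraries from experiments that the submitters call independent. The sources used here do not give the promoter of the plasmid or the share of cells that took it up.

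Complex I passes electrons from NADH to ubiquinone and pumps protons across the inner mitochondrial membrane. Its matrix arm holds the flavin and iron-sulfur clusters, and its membrane arm holds the proton pumps, which are encoded on the mitochondrial genome. Nuclear subunits are made in the cytosol, imported and joined in modules by assembly factors that leave the finished enzyme. Subunit messages are abundant in most cells, and the footprints described here report both the amount of a message and the ribosomes on it. A lower footprint count may come from fewer messages or from fewer ribosomes per message, which cannot be told apart here.

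Some of these genes share a sequence at the start of the message. The letters AANATGGCG are the core of the binding element of the factor YY1 and of TISU, an initiator element known from messages with very short leaders. They occurred on either strand in the promoter windows (250 bases before to 50 after the start site, RefSeq GRCh38.p14) of 11 of the 32 subunits and 1 of the 7 assembly factors that had a window, against 3.19% of all 35116 windows and 8.22% of 10006 tested genes with one. On the strand of the gene and within the 50 bases after the start site they were found in 8 of the 32 subunits and in NDUFAF8, against 1.42% of all windows and 4.51% of tested genes with one. Windows of 30 bases are shown for 6 members that the results turn on, with the matched letters in capitals:
NDUFA9: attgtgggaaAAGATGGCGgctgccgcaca
NDUFS3: gcatctgagtAACATGGCGgcggcggcggt
NDUFS4: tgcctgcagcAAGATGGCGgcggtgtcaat
NDUFS7: ggccgaggccAAGATGGCGgtgctgtcagg
NDUFA6: atgctttggcAAGATGGCGgggagcggcgt
NDUFAF8: ggacggacctAAGATGGCGgcctccagggg

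They lie at chr12:4649114-4649143 (NDUFA9, plus strand), chr11:47579079-47579108 (NDUFS3, plus), chr5:53560650-53560679 (NDUFS4, plus), chr19:1383914-1383943 (NDUFS7, plus), chr22:42090728-42090757 (NDUFA6, minus) and chr17:81239317-81239346 (NDUFAF8, plus). Counted from 1 at the start site, the match began at base 11 in NDUFA9, 16 in NDUFS3 and 26 in NDUFA6. These 6 include the subunit furthest below NC in OE replicate 1 (NDUFA9) and the subunit highest over NC in OE replicate 2 (NDUFS3). They also include the assembly factor that was highest over NC in OE replicate 1 (NDUFAF8). In OE replicate 1 NDUFS3 was itself below NC, by -1.38 on the log2 scale. The 8 subunits with the match had a median log2 difference from NC of -1.32 and 0.02 in OE replicates 1 and 2, and the 24 with a window and no such match had -0.96 and 0.05. Other elements were less common. The NRF1 element was in 6 of the 32 subunits (13.4% of tested genes), the ETS-type CCGGAAG in 5 (22.8%), the SP1-type GGGGCGGGG in 6 (33.5%), the cyclic AMP element TGACGTCA in 2 (3.86%) and TATAAA in 3 (8.52%), on either strand. A match of letters shows neither binding nor use of a start codon.

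Libraries held between 7742274 (OE replicate 1) and 24392875 (OE replicate 2) estimated counts. Counts scaled to library size (CPM, counts per 1000000 after TMM scaling) had a Pearson correlation over the 46 genes of 0.995 between the NC libraries and 0.902 between the OE libraries, on the log2 scale. METTL14 had 44.5 and 47.6 CPM in NC against 448 and 91.2 CPM in OE, so the 2 OE libraries differed in the overexpressed gene itself. Its log2 fold change of 2.55 (SE 0.81) did not pass the edgeR test (adjusted p = 0.734), and in DESeq2 it did (adjusted p = 0.049). Summed over 10 markers, colorectal epithelial genes had between 21069 and 24517 CPM in 3 libraries and 6159 CPM in OE replicate 1. Markers of fibroblasts summed to 10.3 CPM or less and those of endothelial cells to 0.410 or less, with CDH5 and KDR at 0 throughout. Leukocyte markers summed to between 30.6 and 78.6 CPM, with CD3E at 0.

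No member passed the test of OE against NC. In edgeR's quasi-likelihood fit, with p-values adjusted by Benjamini-Hochberg over 12560 genes, 0 of 46 members and 0 genes (0%) had an adjusted p under 0.05. At an unadjusted p under 0.05 there were 0 members and 691 genes. The smallest adjusted p of a member was 0.734. DESeq2's Wald test called 25 genes (0.199%) and edgeR's likelihood ratio test 29 (0.231%), and neither called a member. The OE libraries lay far apart for these genes, and the call depended on which was kept. Without OE replicate 1, 2 members were called lower (NDUFA13 and NDUFC2, against 17.3% of all genes in that fit) and 9 higher (16.8% of all genes: NDUFA6, NDUFA8, NDUFA11, NDUFC1, NDUFS3, NDUFV2, NDUFAF2, NDUFAF3 and NDUFAF4). Without OE replicate 2, 41 were called lower (30.8% of all genes) and 1 higher (NDUFAF8, against 30.1%). Both of those fits take their spread from the NC pair alone, with the lone OE library assumed to vary like it.

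All 38 subunits had fewer footprints in OE replicate 1 than in either NC library, a position held by 45.5% of all genes tested. With library totals as the only scaling the count was 33 of 38. In OE replicate 2 the subunits lay on both sides of NC, with 15 below both NC libraries (42.5% of all genes), 16 above both (42.8%) and 7 between. Against the NC mean, the median subunit differed by -1.11 log2 units in OE replicate 1, with a range from -2.40 to -0.18, and was 0.03 in OE replicate 2, with a range from -0.69 to 0.79. Between the NC libraries the median difference was 0.11. For all genes tested the medians were 0.02 and 0.00 in OE replicates 1 and 2. Over both groups the median log2 fold change of the subunits was -0.38, and -0.41 without NDUFA4, against 0.09 for all genes. Scaled by library totals alone it was -0.16, where all genes had 0.40, and -0.66 with limma quality weights. Leaving out OE replicate 1 gave 0.04, and leaving out OE replicate 2 gave -1.15. Both OE libraries lay below both NC libraries for 15 of 38 subunits (20.4% of all genes) and above both for none (19.9%). As all 38 were below NC in OE replicate 1, these 15 are the ones below NC in OE replicate 2. The share to set beside them is thus 42.5% of all genes, and none could lie above in both.

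**Figure D1:**
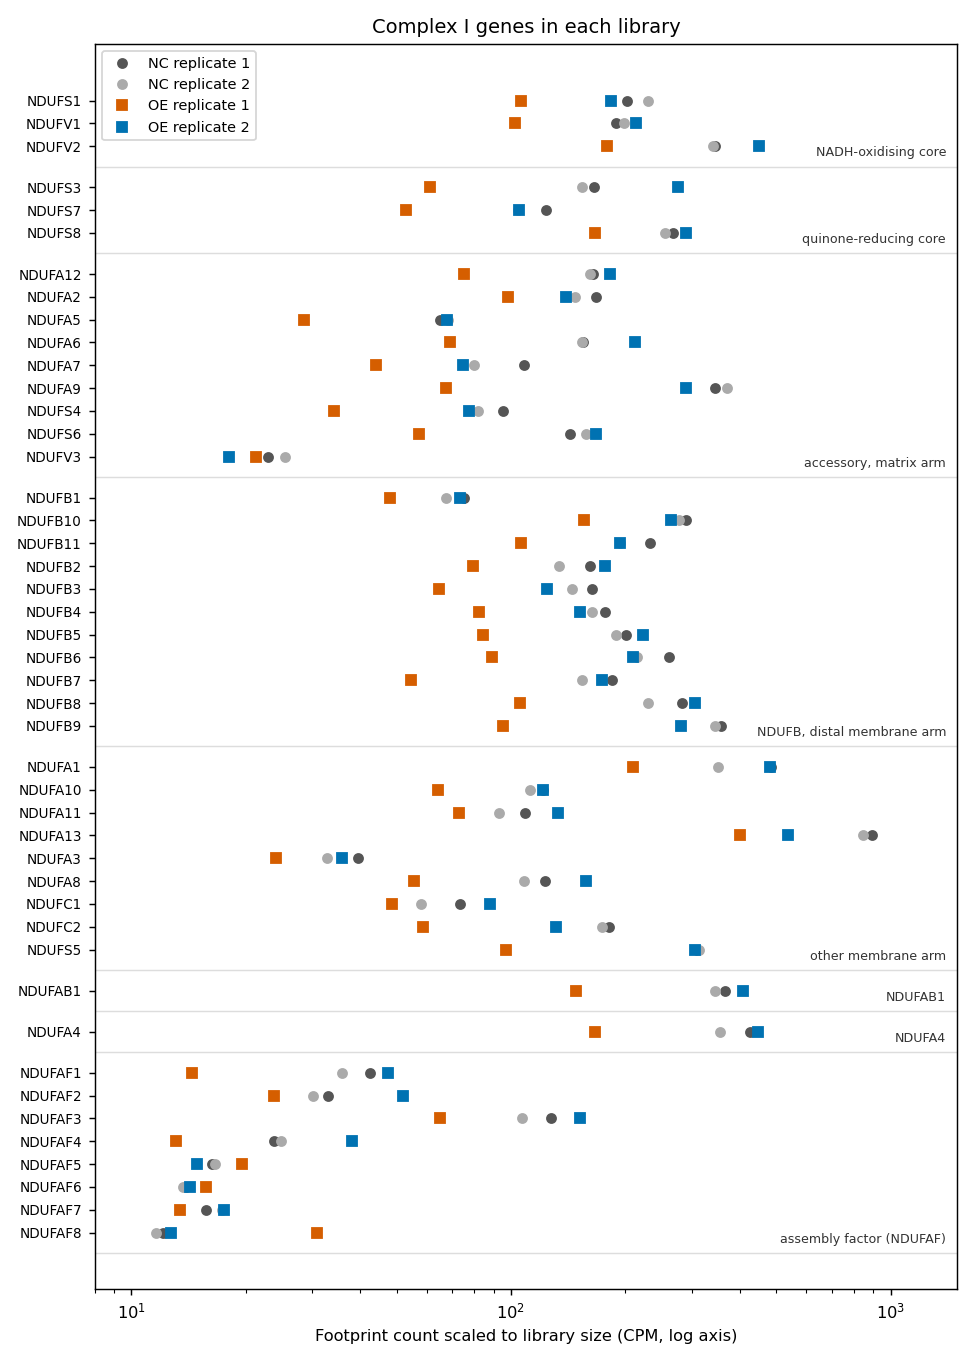
Footprint count scaled to library size (CPM, log axis) of 45 complex I genes in each of the 4 libraries, grouped by place in the complex; each point is 1 library. OE replicate 1 (orange squares) is the lowest library for 36 of the 37 subunits drawn, the exception being NDUFV3, where OE replicate 2 is lower.

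The core subunits that take electrons from NADH were low in OE replicate 1 and near or above NC in OE replicate 2, apart from NDUFS1. NDUFV1, which binds the flavin that accepts electrons from NADH, had 189 and 199 CPM in NC against 102 and 213 CPM in OE (194 ± 6.55 against 158 ± 78.4, SD, n = 2 each). NDUFV2, an iron-sulfur protein beside it, had 344 and 341 CPM in NC against 179 and 449 CPM in OE. The OE values of both genes stood on either side of NC. NDUFS1, which carries several of the iron-sulfur clusters of the wire towards ubiquinone, had 202 and 229 CPM in NC against 106 and 183 CPM in OE, so both OE libraries lay below NC. Its log2 fold change was -0.57 (SE 0.43), smaller in size than the distance between the OE libraries. In the order NDUFV1, NDUFV2 and NDUFS1 the OE replicate 1 values differed from the NC mean by -0.92, -0.94 and -1.02 on the log2 scale. Their standard deviation of 0.05 was the smallest of the 5 structural groups with over 1 gene.

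The quinone-reducing core was less even. NDUFS3, a core protein of the first assembly intermediate, had 166 and 154 CPM in NC against 61.1 and 276 CPM in OE. Its OE replicate 1 value was the lower and its OE replicate 2 value the higher by the widest margin of the 7 core subunits, and its log2 fold change was 0.08 (SE 0.74). NDUFS7, which carries the last cluster before ubiquinone, had 124 and 105 CPM in NC against 52.8 and 105 CPM in OE. NDUFS8, another iron-sulfur protein, had 268 and 255 CPM in NC against 166 and 289 CPM in OE. OE replicate 2 was thus above both NC libraries for NDUFS3 and NDUFS8 and between them for NDUFS7.

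Accessory subunits of the matrix arm held the widest single deficit. NDUFA9, which lies where the arms meet, had 345 and 370 CPM in NC, then 67.4 in the first OE library and 290 in the other. Its log2 difference from NC was -2.40 and -0.30 in the OE libraries, both below NC, and its log2 fold change of -1.002 (SE 0.74) had an adjusted p of 0.741. NDUFS4, needed to stabilise the NADH-oxidising module, had 95.2 and 81.7 CPM in NC against 34.2 and 77.7 CPM in OE. Its groups did not overlap, though OE replicate 2 lay close to the nearer NC library.

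NDUFA6, one of the subunits that binds an acyl carrier protein, had 154 and 154 CPM in NC against 68.9 and 213 CPM in OE, and stood on both sides of NC. NDUFA7 had 108 and 80.0 CPM in NC against 44.0 and 74.7 CPM in OE, from the larger of 2 rows of that name between which its reads were divided, so its level is uncertain. NDUFA2, NDUFA5, NDUFA12 and NDUFS6 differed from NC by between -1.39 and -0.68 in OE replicate 1 and between -0.17 and 0.16 in OE replicate 2. NDUFV3 differed from its group, with 22.9 and 25.4 CPM in NC against 21.3 and 18.1 CPM in OE, so that OE replicate 2 was its lowest library. All 9 genes of the group were below both NC libraries in OE replicate 1, and 5 of them in OE replicate 2 too (42.5% of all genes).

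The 11 NDUFB subunits of the distal membrane arm had a median log2 fold change of -0.51, and a median difference from NC of -1.21 and -0.10 in OE replicates 1 and 2. All 11 were below both NC libraries in OE replicate 1. In 5 of them (NDUFB3, NDUFB4, NDUFB6, NDUFB9 and NDUFB10) OE replicate 2 was below both as well, against 42.5% of all genes in that library. NDUFB9, which also binds an acyl carrier protein, had 358 and 344 CPM in NC against 95.1 and 280 CPM in OE, and its fold change on the log2 scale was -0.90 (SE 0.61). NDUFB3 had 163 and 145 CPM in NC against 64.6 and 125 CPM in OE, and its fold change on the log2 scale was -0.70 (SE 0.44). NDUFB6 had 261 and 214 CPM in NC against 89.4 and 210 CPM in OE, where OE replicate 2 lay just under the lower NC library. In NDUFB7, a protein on the intermembrane face of the arm, the values were 184 and 154 CPM in NC against 54.6 and 174 CPM in OE. The NC libraries differed in 1 direction for this group. NC replicate 1 was above NC replicate 2 for 11 of 11 genes (6321 of all 12560) by a median of 0.17. The 7 NDUFB genes without values above had log2 fold changes between -0.54 and -0.20.

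The remaining membrane arm subunits held the members with the smallest unadjusted p. NDUFC2, a subunit of the proximal pumping module, had 181 and 173 CPM in NC against 58.7 and 132 CPM in OE (177 ± 5.73 against 95.1 ± 51.5, SD, n = 2 each). The log2 fold change of NDUFC2 was -0.90 (SE 0.49, adjusted p = 0.734). NDUFA13, also known as GRIM-19 and first described as a mediator of interferon and retinoid induced cell death, had 892 and 846 CPM in NC against 402 and 537 CPM in OE (869 ± 32.8 against 470 ± 95.5, SD, n = 2 each). It was low in both OE libraries, by -1.11 and -0.69 on the log2 scale. The log2 fold change of NDUFA13 was -0.89 (SE 0.49, adjusted p = 0.734), and leaving out OE replicate 1 gave -0.69 and leaving out OE replicate 2 gave -1.15. NDUFA13 and NDUFC2 were the 2 subunits furthest below NC in OE replicate 2.

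NDUFS5, which lies on the intermembrane side of the complex, had 309 and 313 CPM in NC against 97.1 and 306 CPM in OE, so its OE replicate 2 value lay just below NC. NDUFA11 and NDUFC1 had the smallest deficit of this group in OE replicate 1. NDUFA11, a subunit buried in the membrane, had 109 and 93.0 CPM in NC against 72.9 and 133 CPM in OE, and NDUFC1 had 73.4 and 58.1 CPM in NC against 48.6 and 87.9 CPM in OE. NDUFA1, NDUFA3, NDUFA8 and NDUFA10 had log2 fold changes between -0.33 and -0.12.

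NDUFAB1, the mitochondrial acyl carrier protein shared with fatty acid synthesis, had 367 and 344 CPM in NC against 148 and 408 CPM in OE. NDUFA4 had 425 and 354 CPM in NC against 166 and 447 CPM in OE. Their log2 fold changes of -0.35 (SE 0.60) and -0.35 (SE 0.60) lay close to the median of the subunits. The plot by place in the complex shows that each structural group of subunits was low in OE replicate 1, and that those with more than 1 gene straddled NC in OE replicate 2.

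**Figure D2:**
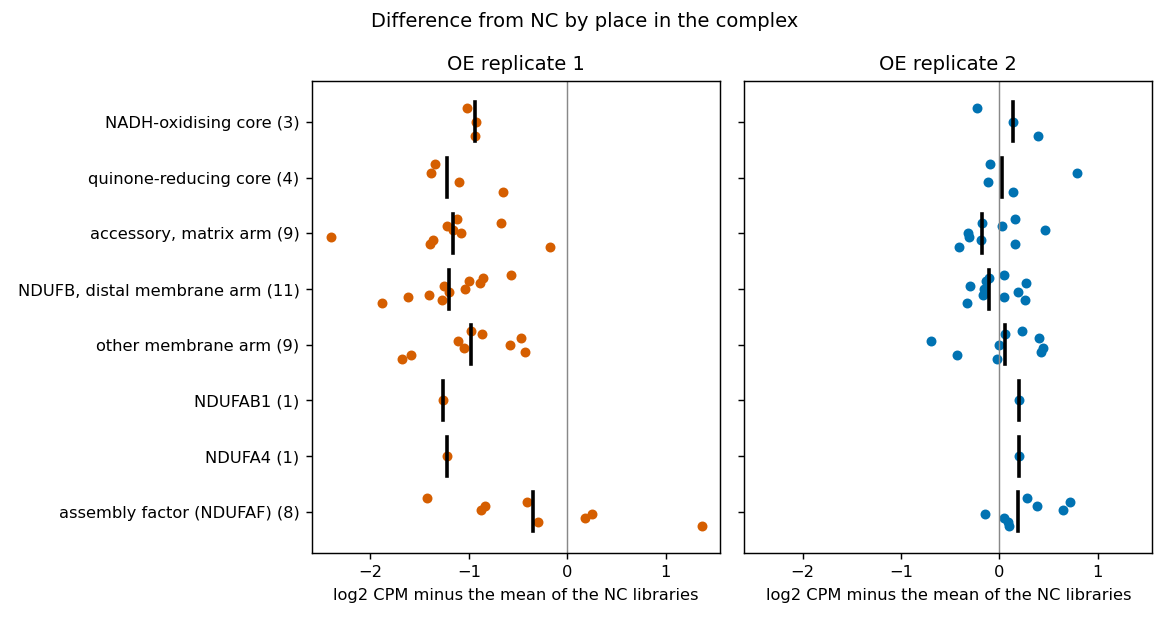
log2 CPM minus the mean of the NC libraries in OE replicate 1 (left) and OE replicate 2 (right) for each complex I gene, by place in the complex with the number of genes in brackets; each point is a gene and each bar the median of the group. The subunit groups have medians between -1.26 and -0.94 on the left and between -0.17 and 0.20 on the right, and the assembly factors have -0.35 and 0.19.

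By their medians, the NDUFAF assembly factors stood closer to NC than subunits in OE replicate 1 and further from it, on the high side, in OE replicate 2. Their median log2 fold change was 0.08, a difference of -0.46 between subunits and assembly factors, and no library left out turned the sign of that difference, which came to -0.15 with OE replicate 1 left out and -0.76 with OE replicate 2 left out. In OE replicate 1 the medians were -1.11 for subunits and -0.35 for assembly factors, and in OE replicate 2 they were 0.03 and 0.19. The factors ran from -1.43 to 1.37 in OE replicate 1, with a standard deviation of 0.86 against 0.42 for the subunits. Of the 8 factors, 5 were below both NC libraries in OE replicate 1 (45.5% of all genes) and 3 above both (46.7%). In OE replicate 2, 7 were above both (42.8%). None was lower in both OE libraries (20.4% of all genes), and 2 were higher in both, a share near the 19.9% of all genes.

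The factors with more footprints in both OE libraries were NDUFAF8 and NDUFAF6. NDUFAF8, which stabilises NDUFAF5, had 12.2 and 11.6 CPM in NC against 30.8 and 12.8 CPM in OE, so the excess lay almost wholly in OE replicate 1. It had a log2 fold change of 0.87 (SE 0.49) with an adjusted p of 0.734. NDUFAF6, which acts early on the membrane module, had 14.0 and 13.7 CPM in NC against 15.7 and 14.3 CPM in OE, and its fold change on the log2 scale was 0.12 (SE 0.31). NDUFAF5, which hydroxylates an arginine of NDUFS7, had 16.3 and 16.6 CPM in NC against 19.6 and 14.9 CPM in OE. NDUFAF7, an arginine methyltransferase of the mitochondrial matrix, had 15.8 and 17.3 CPM in NC against 13.4 and 17.6 CPM in OE. These last 3 genes differed from NC by at most 0.30 on the log2 scale in either OE library.

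The other 4 factors were low in OE replicate 1 and high in OE replicate 2. NDUFAF2, a relative of NDUFA12 that holds its place until late in assembly, had 33.1 and 30.01 CPM in NC against 23.7 and 52.0 CPM in OE. NDUFAF3 and NDUFAF4, which work together on the early quinone module, had 128 and 107 CPM in NC with 65.2 and 152 CPM in OE, and 23.7 and 24.9 CPM in NC with 13.1 and 38.1 CPM in OE. NDUFAF1, part of the complex that builds the proximal membrane arm, had 42.5 and 35.9 CPM in NC against 14.5 and 47.3 CPM in OE. Log2 fold changes of the 8 factors ran from -0.34 (NDUFAF1, SE 0.59) to 0.87.

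The complex has further assembly factors under other names, and 11 of them were tested. Their median log2 fold change was -0.10, with medians of -0.57 and 0.39 in OE replicates 1 and 2, and 0 of 11 passed the test in either direction. Of the 11, NUBPL and COA1 were lower in both OE libraries (20.4% of all genes) and 1 was higher (19.9%). The higher one was TMEM126B, a membrane partner of NDUFAF1, with 13.3 and 14.0 CPM in NC against 15.5 and 29.1 CPM in OE and a log2 fold change of 0.71 (SE 0.40). NUBPL, which delivers iron-sulfur clusters, had 14.99 and 16.9 CPM in NC against 7.61 and 14.8 CPM in OE. COA1 had 35.5 and 38.3 CPM in NC against 30.8 and 28.0 CPM in OE, and DMAC1 had 36.0 and 27.2 CPM in NC against 20.4 and 28.6 CPM in OE. Over both lists 14 of 19 assembly factors lay above both NC libraries in OE replicate 2, against 42.8% of all genes. In OE replicate 1, 15 of the 19 lay below both, against 45.5% of all genes, and the median log2 fold change of the 19 was -0.05.

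Subunits and NDUFAF assembly factors also differed in footprint abundance. All tested genes were ranked by mean log2 CPM over the 4 libraries and cut into deciles, a rank of counts that also grows with the length of a message. In OE replicate 1 the median difference from NC went from 0.90 in the lowest decile to -1.02 in the highest, and in OE replicate 2 it stayed between -0.27 and 0.08. Of the subunits, 17 were in the highest decile and 15 in the next, while 6 of the 8 assembly factors were in deciles 4 to 6. Set against the median of its own decile, the median subunit was -0.36 in OE replicate 1 and the median assembly factor -0.33. The gap between them there was -0.03, in place of -0.76 without regard to abundance. In OE replicate 1, 30 of 38 subunits and 7 of 8 assembly factors were below the median of their decile. In OE replicate 2 this held for 18 of 38 and 2 of 8, with medians of 0.03 and 0.14.

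**Figure D3:**
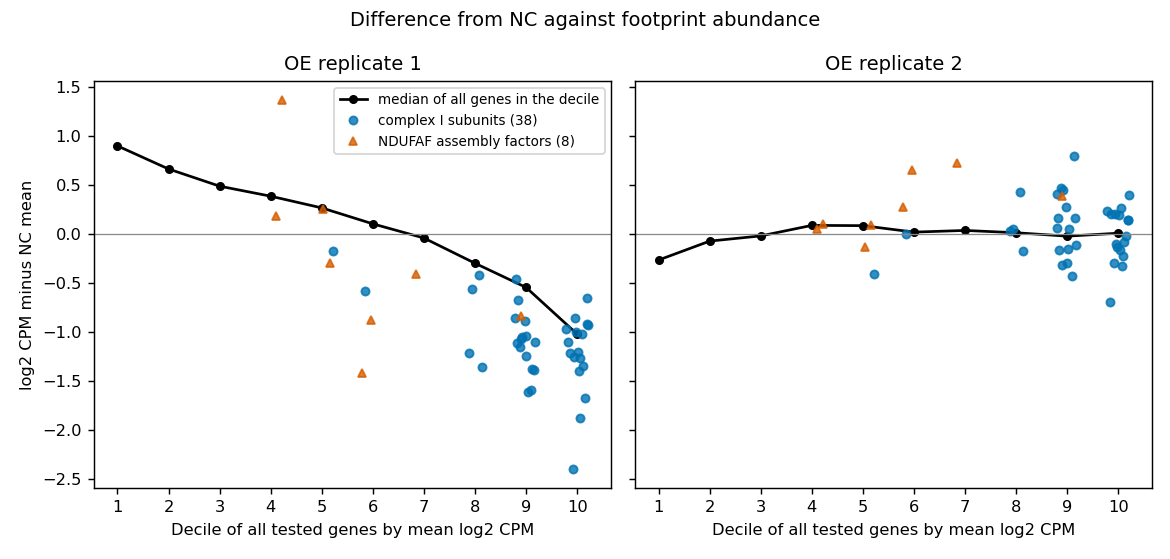
log2 CPM minus the NC mean against the decile of all 12560 tested genes by mean log2 CPM, for OE replicate 1 (left) and OE replicate 2 (right); black line, median of all genes in the decile; circles, subunits; triangles, assembly factors, both spread sideways within a decile. On the left the line goes from 0.90 to -1.02 and most members lie under it, and on the right it stays near 0.

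The core NADH-oxidising subunits did not share that position. NDUFV1, NDUFV2 and NDUFS1 were all in the highest decile, and in OE replicate 1 their median lay 0.09 above the median of that decile. The 9 accessory subunits of the matrix arm were all below the median of their decile in OE replicate 1, by a median of -0.61. The NDUFB subunits and the other membrane arm subunits had medians of -0.34 and -0.32, with 9 of 11 and 7 of 9 below their decile.

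Proportions within the complex were compared by setting each subunit against the median subunit of its own library, which removes any scaling of whole libraries. It leaves in place the abundance trend of OE replicate 1, in which less abundant genes stood higher. Relative to that median, 8 of 38 subunits lay below both NC libraries in each OE library (5.44% of all genes on the same footing) and 6 lay above both (30.4% of all genes). Because the subunits were centred on their own median, these counts describe the members and test nothing. Those lower included NDUFA9, NDUFB9, NDUFC2, NDUFS5, NDUFB6, NDUFB3 and NDUFS4. For NDUFA9 the relative difference was -1.26 and -0.41 in OE replicates 1 and 2, for NDUFB9 it was -0.74 and -0.43, and for NDUFC2 it was -0.45 and -0.53. The 6 were NDUFC1, NDUFA11, NDUFS8, NDUFV2, NDUFA8 and NDUFB2, with NDUFC1 at 0.72 and 0.33 and NDUFA11 at 0.68 and 0.30. Set against the medians of their deciles in OE replicate 1, NDUFC1 was at -0.12 and NDUFA11 at 0.08.

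NDUFA13 kept its proportion in OE replicate 1 (0.03) and was the lowest subunit in OE replicate 2 (-0.79), and NDUFV3 had 0.97 and -0.51. Against its own decile, NDUFV3 was at -0.44 in OE replicate 1. The relative differences had a standard deviation over the subunits of 0.42 in OE replicate 1, 0.30 in OE replicate 2 and 0.16 between the NC libraries. Without OE replicate 1 the counts were 20 lower and 13 higher, against 48.3% and 34.9% of all genes. Without OE replicate 2 they were 15 and 17, against 9.37% and 86%, and without NC replicate 2 they were 11 and 10, against 6.54% and 43.7%.

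**Figure D4:**
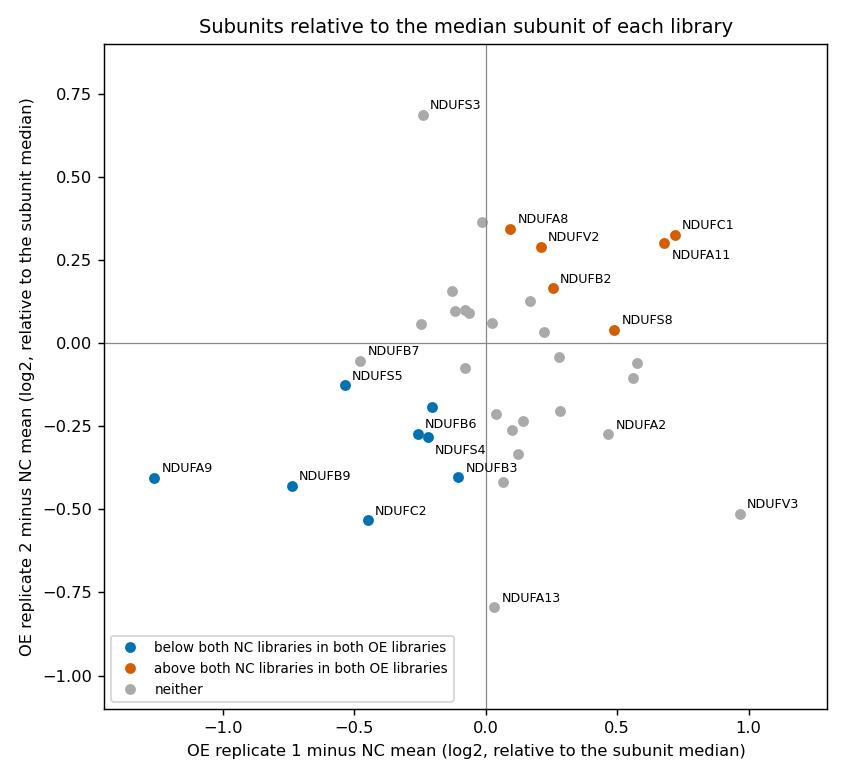
Each of the 38 subunits relative to the median subunit of its library: log2 difference from the NC mean in OE replicate 1 (horizontal) and OE replicate 2 (vertical). Blue points, 8 subunits below both NC libraries in both OE libraries; orange points, 6 above both; grey points, neither.

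Summed footprints were taken as shares of library totals, without TMM scaling, and those of the subunits were again lowest in OE replicate 1. The 38 subunits took 0.738% and 0.696% of all counts in the NC libraries and 0.483% and 0.723% in the OE libraries. The Wilson 95% intervals cover no more than counting error and ran from 0.478 to 0.488% for OE replicate 1 and from 0.720 to 0.727% for OE replicate 2. The 8 assembly factors took 0.0253% and 0.0234% in NC and 0.0266% and 0.0317% in OE. Their share in OE replicate 1 was thus above both NC libraries, whereas after TMM scaling their median there was -0.35 log2 units from NC. Subunit counts per assembly factor count were therefore 29.1 and 29.7 in NC and 18.2 and 22.8 in OE. Both OE libraries were below both NC libraries, with no allowance made for the abundance trend of OE replicate 1. NDUFAF3 held 2476 of the 5533 factor counts in NC replicate 1 and 685 of the 2060 in OE replicate 1, and NDUFAF8 held 236 and 324. A comparison of 2 libraries with 2 cannot reach an exact two-sided permutation p below 0.333.

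The 7 subunits encoded on the mitochondrial genome lay above both NC libraries in OE replicate 1, as did 46.7% of all genes. In OE replicate 2 all 7 lay below both, as did 42.5% of all genes. MT-ND1 had few counts, and its 2.475 CPM in OE replicate 1 all but equalled the 2.472 CPM of NC replicate 1. The 7 together took 0.283% and 0.272% of counts in NC, 0.783% in OE replicate 1 and 0.116% in OE replicate 2. Nuclear subunit counts per mitochondrially encoded count were therefore 2.60 and 2.56 in NC, and 0.617 and 6.21 in OE replicates 1 and 2. Whether the mitochondrially encoded counts come from arrested ribosomes as the nuclear ones do was not tested, so these ratios compare counts only.

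**Figure D5:**
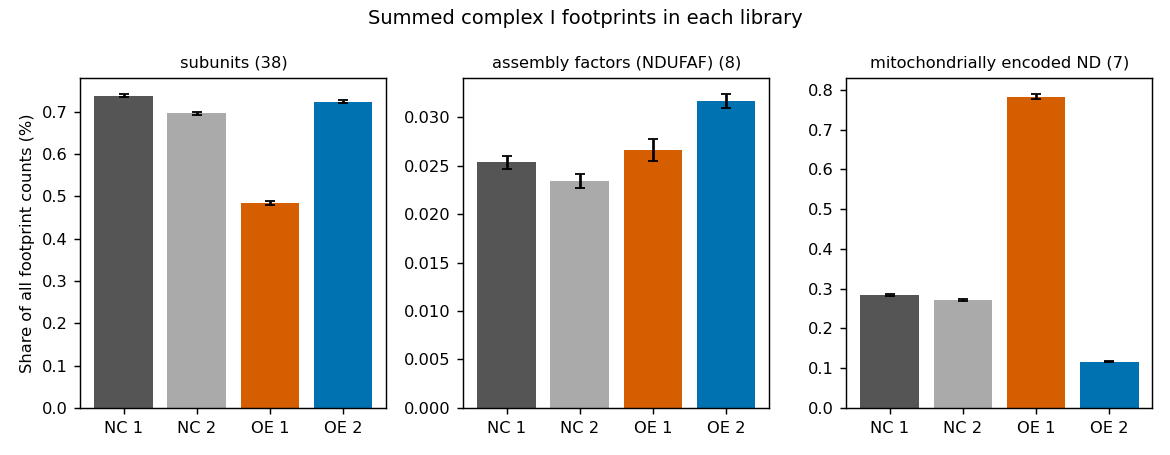
Share of all footprint counts of a library (%) taken by the 38 nuclear subunits, the 8 NDUFAF assembly factors and the 7 mitochondrially encoded subunits, with Wilson 95% intervals for counting error; each panel has its own axis from 0. OE replicate 1 is the lowest library for nuclear subunits (0.483%) and the highest for mitochondrially encoded ones (0.783%).

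The lower values of OE replicate 1 came with other properties of that library, whose part in them was not tested. It was the smallest of the 4 libraries, its TMM factor was 1.36 against 0.889 to 0.912 in the others, and its METTL14 level was the highest. OE replicate 2, whose TMM factor was 0.907 and whose abundance trend was flat, held the subunits at a median of 0.03 from NC, with NDUFA13, NDUFC2 and NDUFV3 the furthest below and NDUFS3, NDUFA6 and NDUFA8 the furthest above.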

How the data were processed

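For each library the authors deposited a table of estimated counts by Ensembl gene, per the file headers. Between 13.8% and 14.7% of values held a fraction and were rounded. RSEM, StringTie, HISAT2, Bowtie2, fastp and the build hg18 are named in the submitters' processing notes. The sources used here give no versions, settings, annotation or strand, so counts of overlapping or near-identical genes are uncertain.

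Counts were filtered with filterByExpr (minimum count 10, total 15, proportion 0.7), scaled by TMM and tested with edgeR 4.0.16 (quasi-likelihood, group only, Benjamini-Hochberg, threshold 0.05) in R 4.3.3. The alternatives used DESeq2 1.42.0 and limma 3.58.1 too. Log2 CPM had a prior count of 2. Replicates were compared first. The chi-square between counts, divided by its degrees of freedom, was 13.4 within NC and 345 within OE. The 2 libraries of a group were thus not repeats of each other, and libraries of different groups were not compared this way. With 2 libraries a group, p-values measure only the spread between these libraries. Same-numbered libraries had deviations correlated at -0.10 over genes. This cannot tell whether equal numbers mark paired experiments, as the log2 differences had an SD of 1.30 within OE and 0.46 within NC. The labels state no pairing, so the fit had no block and a replicate block was an alternative. The steps were also run on simulated counts, in which all genes had the same dispersion and libraries of a group the same expected levels. The OE libraries here differ more than that, so the run does not show how the steps behave on them.

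Of 51 rows matching the symbols, 5 symbols had more than 1 row; the row with the largest summed count was used, and 5 rows were left out, among them 1 readthrough. Members and lists were chosen with earlier results of these data known. Named by rule were METTL14, the core subunits, all NDUFAF genes, NDUFAB1, NDUFA4, the 8 accessory subunits with the smallest p and the 4 with the widest gap between OE libraries, and 4 other assembly factors with the smallest p; further names were chosen after their values were seen. Gene lengths were not used here, so the part of the rule on levels per length could not be applied; the deciles and the summed shares use counts not divided by length. Promoter windows are RefSeq's; 39 of the 46 members had one, and the motifs were chosen after the values were seen. For 1 member, single values are not reported here; it is counted in the totals and medians.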

Additional observations from a re-analysis of the deposited data

How the results depend on the processing

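Counts of called genes moved most: 0 by the test as designed, 25 by DESeq2's Wald test, 29 by edgeR's likelihood ratio test, 24 with the replicate block, and 7 to 7969 with each library left out; the cause was not tested. No member was called in any fit over all 4 libraries, by either edgeR test, DESeq2 or limma. With each library left out the subunit median ran from -1.15 to 0.04, the assembly factor median from -0.40 to 0.19 and their difference from -0.76 to -0.15. Members whose remaining OE libraries all lay below the remaining NC libraries then numbered 16 to 43, and those above 2 to 23. For all genes the shares were 24.8% and 25.8% without NC replicate 1, and 26.0% and 25.4% without NC replicate 2. By the main scaling they were 42.5% and 42.8% for OE replicate 2 alone, and 45.5% and 46.7% for OE replicate 1 alone. With library totals as the only scaling, 6 members were higher in both OE libraries (30.2% of all genes). That scaling moved the median of all genes from 0.09 to 0.40 and that of the subunits from -0.38 to -0.16. Limma quality weights gave -0.66 for the subunits. Subunits lower relative to the subunit median numbered 11 to 20 and those higher 7 to 17, a setting chosen after seeing the data.

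Single members turned sign in some settings. With limma's quality weights NDUFS3 was -0.52 and NDUFAF4 -0.089, and with the replicate block they were -0.30 and -0.11. With library totals alone NDUFV2 was 0.078, NDUFS8 0.050, NDUFAF3 0.10, NDUFAF7 0.20 and NDUFA6 0.049. Leaving out a library gave -0.97 to 0.14 for NDUFV1, -0.98 to 0.39 for NDUFV2, -1.43 to 0.79 for NDUFS3, -0.70 to 0.14 for NDUFS8, -1.48 to 0.27 for NDUFAF1, -0.45 to 0.72 for NDUFAF2, -0.89 to 0.38 for NDUFAF3, -0.93 to 0.65 for NDUFAF4, -0.14 to 0.21 for NDUFAF5, -0.34 to 0.093 for NDUFAF7, -1.30 to 0.20 for NDUFAB1, -1.27 to 0.20 for NDUFA4, -1.67 to 0.044 for NDUFB7 and -1.20 to 0.47 for NDUFA6. The replicate block changed no call of a member (smallest adjusted p = 1.00). The 3 counts that a count of 0 allows equal between 0.136 and 0.286 CPM over the libraries.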

Other observations

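Reads of NDUFA7 were divided between 2 rows of that name in a nearly constant ratio. The row left out held 33.2% and 33.3% of the pair's estimated counts in the NC libraries and 32.1% and 33.2% in the OE libraries.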
